A study of Mus musculus with 24 samples.

Results

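The 41 genes described here build the machinery that copies DNA and supplies its building blocks, and they were chosen by name from the 27179 genes that both raw read count tables list. They form 5 groups by role. The MCM helicase has 6 members, licensing and origin firing has 11, the DNA polymerases and primase have 9, the group of the sliding clamp, clamp loader, ligation and single-strand binding factors has 10, and deoxynucleotide synthesis has 5. A member entered a test where it reached 0.5 CPM, counts scaled to library size, in at least 2 of the 8 libraries of a stage. This held for 40 of 41 members in naive B cells and for all 41 in each of the activated stages. The member left out was Mcm10 in naive cells, which had a CPM of 0.46 and 0.45 in the control libraries, 0 and 0 in the PU.1 cKO, 0.25 and 0.40 in the SpiB KO, and 0.26 and 0.45 in the PU.1 SpiB DKO.

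RNA was sequenced from lymph node B cells of C57BL/6 mice, with 4 genotypes at 3 stages and 2 biological replicates of each, 24 libraries in all. Control mice carried the Cd23-Cre transgene (Cd23T/+). PU.1 cKO mice carried it together with floxed alleles of Spi1, the gene of PU.1 (Spi1fl/fl Cd23T/+), and PU.1 SpiB DKO mice were also null for Spib (Spi1fl/fl Cd23T/+ Spib-/-). SpiB KO mice were Spi1fl/fl Cd23+/+ Spib-/-, so that this group carried floxed Spi1 but no Cre, unlike the control. The Cre is active from the transitional B cell stage onwards, and a B cell that escaped it keeps Spi1. Cells were naive or had been cultured for 48 h with CD40L + IL-4, which stands in for help from T cells, or with LPS + IL-4, a bacterial stimulus through TLR4.

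Spib fell in every SpiB-deficient group, from 1600 and 1420 CPM in the naive control to 91.3 and 85.4 in the naive SpiB KO and 104 and 107 in the naive DKO. Spi1 fell from 169 and 182 CPM in the naive control to 63.6 and 57.0 in the PU.1 cKO and to 108 and 118 in the DKO. In LPS + IL-4 the Spi1 level of the DKO (58.8 and 54.8 CPM) was close to that of the control (69.1 and 60 CPM), and this comparison missed the threshold (adjusted p = 0.447 by edgeR), whereas in CD40L + IL-4 it was 31.7 and 25.1 CPM against 81.9 and 105 in the control. The floxed part of Spi1 is 1 exon, so a count over the whole gene does not measure the deletion itself. From read coverage, the study reported that exon as completely removed in CD40L + IL-4 cells, with a similarly high deletion in LPS + IL-4. In naive cells it reported complete loss in the PU.1 cKO but marked retention in the DKO. The naive DKO was therefore not a full loss of PU.1. Library totals were 14231188 to 18194629 counts in naive cells, 9598674 to 61640683 in CD40L + IL-4 and 22757630 to 73658850 in LPS + IL-4. The summed level of 6 B cell markers in naive libraries was 10900 to 11100 CPM in the control and 10900 to 11000 in the PU.1 cKO. It was lower in the SpiB KO (9530 to 9780) and the DKO (8190 to 8840). In the naive SpiB KO and DKO libraries the summed level of plasmacytoid dendritic cell markers was 1010 to 1460 CPM, against 168 to 291 in the control and PU.1 cKO, and that of T cell markers was 252 to 366 CPM, against 10.6 to 36.2, with Cd3e at or below 0.68 CPM in every naive library. The study sorted the cells for sequencing as B220+, CD3- and CD138-, a gate that leaves out cells with surface CD3 or CD138, the T cell and plasma cell proteins. In bulk RNA, fewer cells of a type and less RNA per cell cannot be told apart, and the same holds for a smaller share of cells in S phase.

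Replication starts where the origin recognition complex, with Cdc6 and Cdt1, loads the MCM helicase onto DNA before S phase. The kinase Cdc7, Mcm10, Cdc45 and the GINS complex then turn the loaded helicase on, DNA polymerase alpha with its primase lays down primers, and polymerases delta and epsilon extend them, held on DNA by the clamp PCNA, which the RFC complex loads. Fen1 trims and Lig1 seals the lagging strand, RPA covers single-stranded DNA, and ribonucleotide reductase (Rrm1 and Rrm2), Tyms, Tk1 and Dut keep up the supply of deoxynucleotides. Naive B cells rest outside the cell cycle, and signals through CD40 or TLR4 bring them back into it.

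Activation of control B cells raised nearly the whole machinery. A gene was called where its Benjamini-Hochberg adjusted p in edgeR's quasi-likelihood test was under 0.15 and its fold change over 1.5. In CD40L + IL-4 against naive control cells, 38 of 41 members were called higher and 0 lower, where 25.3% of the 13684 genes tested were called higher and 23.3% lower. The median member was 5.66-fold higher (log2 2.5), and all 41 members had a higher level and an adjusted p under 0.15. In LPS + IL-4 against naive, 38 were again called higher and 0 lower (32.5% and 31.2% of all genes), with a median log2 fold change of 2.75. The summed level of the members was 1690 to 1760 CPM in the naive control libraries, 7540 to 8400 in CD40L + IL-4 and 9100 to 10500 in LPS + IL-4. All stages were compared in 1 fit over all 24 libraries, with levels on 1 CPM scale normalized by the trimmed mean of M values (TMM). The CD40L + IL-4 libraries came in a count table of their own and the naive and LPS + IL-4 libraries in another, so that in comparisons with CD40L + IL-4 the stage and anything else that differs between the tables cannot be told apart.

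The size of the rise differed by role. Deoxynucleotide synthesis had the largest median rise of the 5 groups in CD40L + IL-4 (log2 4.31), followed by licensing and origin firing (3.32), the MCM helicase (2.72), the polymerases and primase (1.89) and the clamp, loader, ligation and RPA group (1.70). In LPS + IL-4 the order was the same, at 3.96, 3.75, 3.07, 2.23 and 1.97. The 5 members with the largest rise were Mcm10, Cdc6, Rrm2, Tyms and Orc1 in both activated stages.

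Mcm10, a factor needed to activate the helicase, went from 0.46 and 0.45 CPM in the naive control to 74.2 and 61.6 in CD40L + IL-4 and 149 and 164 in LPS + IL-4. Each naive control library held only 6 Mcm10 counts, so the rise of 149-fold and 343-fold has a coarse base. Cdc6, which helps to load the helicase, went from 0.76 and 0.74 CPM to 87.4 and 82.4 in CD40L + IL-4 and 114 and 130 in LPS + IL-4 (log2 6.81 ± 0.29 and 7.34 ± 0.29, SE). Both are genes whose RNA was close to absent in naive cells.

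Rrm2, the small subunit of ribonucleotide reductase known to be made mainly in cycling cells, went from 8.76 and 5.13 CPM to 427 and 418 in CD40L + IL-4 and 481 and 593 in LPS + IL-4 (60.9-fold and 77.4-fold). Its partner Rrm1, the large subunit, started at 90.8 and 85.9 CPM and reached 666 and 560 in CD40L + IL-4 and 740 and 917 in LPS + IL-4 (6.94-fold and 9.38-fold). Tyms, which makes thymidylate, rose from 1.45 and 2.08 CPM to 94.1 and 97.8 and to 108 and 147. Orc1, the largest subunit of the origin recognition complex, rose from 1.37 and 0.60 CPM to 26.9 and 21.4 in CD40L + IL-4 and to 84.5 and 97.3 in LPS + IL-4.

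**Figure D1:**
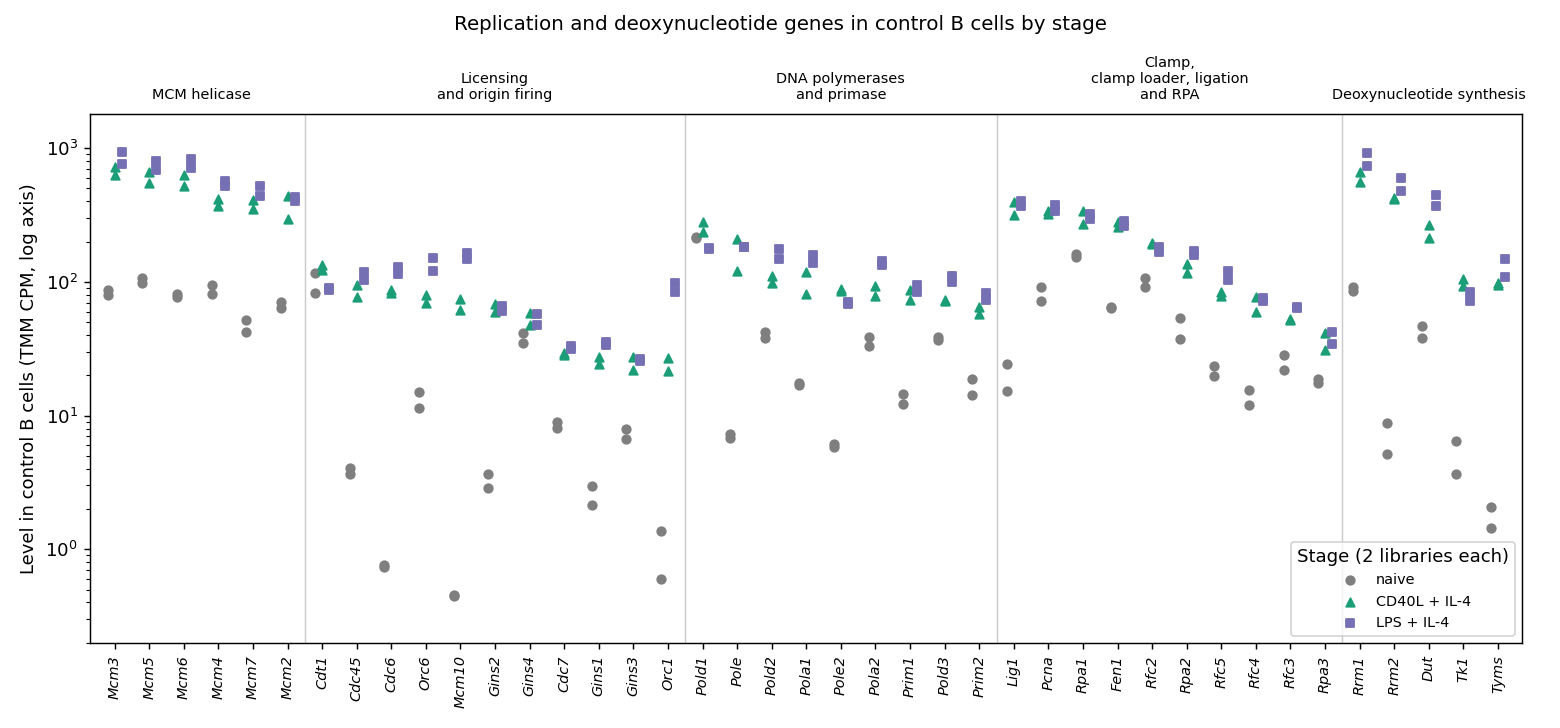
Level of each member in the 2 control libraries of each stage (TMM-normalized CPM, log axis), with genes ordered within each role by their level in CD40L + IL-4 cells. Grey circles are naive, green triangles CD40L + IL-4 and purple squares LPS + IL-4; Pold1, Cdt1 and Gins4 are the members whose naive level already lies near their activated level, and Mcm10 and Cdc6 start below 1 CPM.

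Pold1, Cdt1 and Gins4 stood apart, being the 3 members not called in either activated stage. Pold1, the catalytic subunit of polymerase delta, was at 211 and 218 CPM in naive control cells, 282 and 235 in CD40L + IL-4 and 175 and 180 in LPS + IL-4 (log2 0.27 ± 0.13 and -0.27 ± 0.13). Cdt1, the loading factor, was at 82.7 and 117 CPM in naive cells, 134 and 123 in CD40L + IL-4 and 87.0 and 89.8 in LPS + IL-4. Gins4 was at 41.5 and 35.0 CPM, 47.4 and 58.8, and 47.8 and 57.9. The smallest changes among the members that were called were those of Rpa1, Rfc2, Pold3, Rpa3 and Rfc3 in both activated stages. Each was already well expressed in naive cells. Rpa1, for example, the large subunit of RPA, was at 162 and 154 CPM in naive cells and at 339 and 271 in CD40L + IL-4.

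Between genes, levels were compared only per length, with the deposited log2 RPKM. In naive control cells Rfc2, Pcna, Pold1, Rpa1 and Cdt1 were the 5 highest members, with mean log2 RPKM of 6.03, 6.01, 5.90, 5.62 and 5.48. In LPS + IL-4 control cells the order was led by Mcm3 at 8.22, Pcna at 8.17, Mcm6 at 8.06, Rrm2 at 7.96 and Mcm5 at 7.78, while Pold1 was the 25th of 41 at 5.72 and Cdt1 the 30th at 5.36. The MCM subunits, which sit in 1 ring in equal numbers, spanned 6.97 to 8.22 at that stage. Neighbours in these orders were not separated where their replicates crossed. Rfc2 and Pcna, the top pair in naive cells, had replicate values of 5.91 and 6.14 and of 6.17 and 5.85, and Mcm3 and Pcna in LPS + IL-4 had 8.15 and 8.29 and 8.14 and 8.20.

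CD40L + IL-4 and LPS + IL-4 cells differed less from each other than each did from the naive state. In LPS + IL-4 against CD40L + IL-4 control cells, 7 members were called higher and 0 lower, where 20.2% of all genes were called higher and 20.9% lower, and the median log2 fold change was 0.32. At any fold, 23 members passed the adjusted p as higher and 3 as lower, where 29.8% and 29.5% of all genes did. The 7 were Orc1 (log2 1.91 ± 0.21), Mcm10 (1.20 ± 0.12), Orc6 (0.87 ± 0.16), Dut (0.77 ± 0.20), Pola2 (0.69 ± 0.14), Pold2 (0.63 ± 0.16) and Pola1 (0.59 ± 0.16). The 3 lower members were Pold1 (-0.54 ± 0.13), Cdt1 (-0.54 ± 0.14) and Pole2 (-0.32 ± 0.16), of which Pold1 and Cdt1 were also not called against the naive state.

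Other genes of the same processes, taken from lists outside the 41 members, also rose on activation. Of 31 other replisome and licensing genes, 22 were called higher and 3 lower in CD40L + IL-4, against 24 and 3 in LPS + IL-4. Over all genes 25.3% were called higher and 23.3% lower in CD40L + IL-4, and 32.5% and 31.2% in LPS + IL-4. Clspn, a checkpoint mediator at the fork, and Ticrr, an origin firing factor, had the largest rises in CD40L + IL-4 (log2 7.85 ± 0.46 and 5.54 ± 0.23). All 7 replication-coupled chromatin genes were called higher in each stimulus, among them Uhrf1 and the histone chaperone subunit Chaf1a. Of 32 other nucleotide synthesis genes, 18 were called higher and 6 lower in CD40L + IL-4, and 23 and 7 in LPS + IL-4. Of 18 E2F and RB genes, 13 were called higher in each. All 10 mitosis genes were called higher in each, and Mki67 went from 1.07 and 1.78 CPM to 380 and 120 in CD40L + IL-4 and 623 and 444 in LPS + IL-4.

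Sequence at the start of these genes was read from RefSeq promoters on GRCm38.p6, which run from 250 bases before to 50 bases after an annotated start and held 34 of the 41 members. The motif TTTNNCGC, a loose E2F-like pattern, was found on either strand in 15 of the 34 members (44.1%), against 5.93% of all 27025 genes with a promoter. The promoters with it were those of Cdc6, Cdt1, Gins3, Lig1, Mcm3, Mcm5, Mcm6, Mcm7, Orc1, Pola1, Pold1, Pold3, Pole2, Rfc3 and Tyms. CCAAT, the box bound by NF-Y, was found in 20 of 34 (58.8%, against 41.1% of all genes). The shorter motif TTTGAA, which is part of the element at many mitotic genes, was found in 6 of 34 (17.6%, against 20.2%), and GAGGAA, the core of the site that PU.1 and SpiB share, in 9 of 34 (26.5%, against 31.3%). Each count takes a gene once, however many matches it holds, and a base may lie in matches of more than 1 motif. These are matches of letters in a window, not sites shown to be bound. The promoters of the 5 members with the largest rise, of Cdt1 and Pold1, which were not called, and of Pole2, which was raised in the DKO in LPS + IL-4, are shown 5′ to 3′ on the strand of the gene, with TTTNNCGC and CCAAT matches on either strand in capitals.
Mcm10 (chr2:5012742-5013041, minus strand): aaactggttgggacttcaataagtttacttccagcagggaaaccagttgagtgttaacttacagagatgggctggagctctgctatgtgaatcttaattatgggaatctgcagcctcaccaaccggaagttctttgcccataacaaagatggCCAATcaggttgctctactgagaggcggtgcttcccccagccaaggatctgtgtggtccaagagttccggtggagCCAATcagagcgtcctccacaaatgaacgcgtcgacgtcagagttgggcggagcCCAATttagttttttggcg
Cdc6 (chr11:98907901-98908200, plus strand): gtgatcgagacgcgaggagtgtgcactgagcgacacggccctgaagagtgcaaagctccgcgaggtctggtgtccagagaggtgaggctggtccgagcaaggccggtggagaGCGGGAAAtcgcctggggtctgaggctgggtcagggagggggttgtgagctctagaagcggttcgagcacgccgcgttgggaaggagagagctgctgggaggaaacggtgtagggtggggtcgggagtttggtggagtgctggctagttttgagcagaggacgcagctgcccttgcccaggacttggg
Rrm2 (chr12:24708004-24708303, plus strand): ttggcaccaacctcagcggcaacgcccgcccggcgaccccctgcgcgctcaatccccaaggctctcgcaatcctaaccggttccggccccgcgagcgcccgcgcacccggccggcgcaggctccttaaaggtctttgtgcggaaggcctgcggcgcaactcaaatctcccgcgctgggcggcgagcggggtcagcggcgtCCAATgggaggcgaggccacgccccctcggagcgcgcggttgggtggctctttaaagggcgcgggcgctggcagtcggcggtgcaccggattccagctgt
Tyms (chr5:30073576-30073875, minus strand): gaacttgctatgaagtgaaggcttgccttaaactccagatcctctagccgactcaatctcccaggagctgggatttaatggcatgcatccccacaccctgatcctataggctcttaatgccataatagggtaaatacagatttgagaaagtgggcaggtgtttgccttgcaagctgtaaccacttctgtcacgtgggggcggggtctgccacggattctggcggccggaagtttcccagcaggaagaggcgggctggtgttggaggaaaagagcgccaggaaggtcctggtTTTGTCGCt
Orc1 (chr4:108579204-108579503, plus strand): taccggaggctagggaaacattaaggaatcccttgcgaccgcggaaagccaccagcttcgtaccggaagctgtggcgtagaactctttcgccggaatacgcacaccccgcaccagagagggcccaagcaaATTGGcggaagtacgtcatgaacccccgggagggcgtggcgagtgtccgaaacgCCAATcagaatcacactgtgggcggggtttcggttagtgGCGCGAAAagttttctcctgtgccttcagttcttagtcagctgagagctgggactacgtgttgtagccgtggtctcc
Cdt1 (chr8:122567765-122568064, plus strand): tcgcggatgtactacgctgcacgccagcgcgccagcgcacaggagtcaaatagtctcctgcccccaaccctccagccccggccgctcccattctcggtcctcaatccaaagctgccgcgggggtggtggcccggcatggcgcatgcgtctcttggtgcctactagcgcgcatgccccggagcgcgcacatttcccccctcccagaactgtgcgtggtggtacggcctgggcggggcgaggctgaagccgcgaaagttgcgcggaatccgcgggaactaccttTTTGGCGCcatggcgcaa
Pold1 (chr7:44548766-44549065, minus strand): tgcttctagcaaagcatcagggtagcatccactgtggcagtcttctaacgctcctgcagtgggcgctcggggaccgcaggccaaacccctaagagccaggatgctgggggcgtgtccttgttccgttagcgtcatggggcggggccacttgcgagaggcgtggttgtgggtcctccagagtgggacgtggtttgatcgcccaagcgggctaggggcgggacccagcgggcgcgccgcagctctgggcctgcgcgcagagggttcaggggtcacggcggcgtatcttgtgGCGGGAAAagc
Pole2 (chr12:69228141-69228440, minus strand): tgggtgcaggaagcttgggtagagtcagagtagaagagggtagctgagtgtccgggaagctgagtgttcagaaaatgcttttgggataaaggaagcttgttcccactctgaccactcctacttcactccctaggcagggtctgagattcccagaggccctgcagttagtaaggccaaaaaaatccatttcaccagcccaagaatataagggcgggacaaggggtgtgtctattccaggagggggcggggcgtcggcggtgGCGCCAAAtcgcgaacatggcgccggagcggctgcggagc

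Of these 8 promoters, TTTNNCGC was found in those of Cdc6, Tyms, Orc1, Cdt1, Pold1 and Pole2 and not in those of Mcm10 and Rrm2. The latter hold CCAAT, as does Orc1. The Mcm10 window ends in the motif short of its last base, so a match across that edge could not be seen. So both a member that rose 112-fold in CD40L + IL-4 (Cdc6) and members that hardly moved (Cdt1 and Pold1) carry the motif in this window.

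The loss of PU.1 and SpiB changed few members by more than 1.5-fold at any stage. Each comparison here is with the control libraries of the same stage, so that the 3 genotype comparisons of a stage share the same 2 control libraries. In naive cells 1 member was called in the PU.1 cKO (10.6% of the 12500 genes tested were called), 2 in the SpiB KO (9.49%) and 5 in the DKO (20.9%). In CD40L + IL-4 the counts were 1 (13.4% of 12721 genes), 0 (0.236%) and 4 (18.1%), and in LPS + IL-4 they were 0 (10.4% of 12445 genes), 0 (3.15%) and 2 (20.1%). In each of these comparisons the share of members called was below that of all genes.

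**Figure D2:**
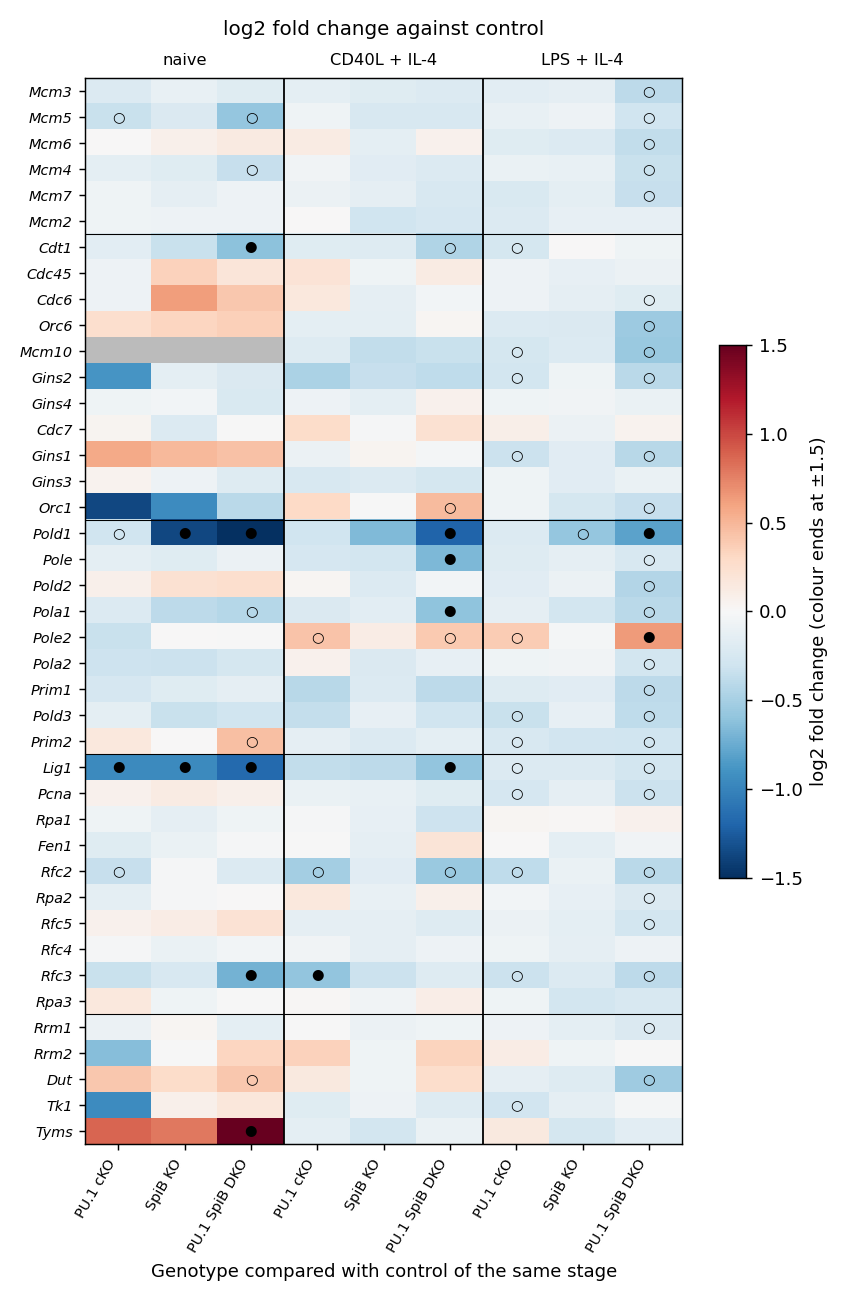
log2 fold change of each member (rows, grouped by role) against the control of the same stage in the 9 genotype comparisons (columns), from blue (lower) to red (higher). Filled circles mark an adjusted p under 0.15 with a fold change over 1.5, open circles the same p at a smaller fold, and grey cells the untested Mcm10 in naive cells; Pold1 and Lig1 carry the most filled circles, and the LPS + IL-4 DKO column holds the most open ones.

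Pold1 had the largest fall of any member called against control, and with Lig1 the most such calls, 4 for each gene. In naive cells it was at 211 and 218 CPM in the control, 174 and 174 in the PU.1 cKO, 87.0 and 80.6 in the SpiB KO and 70.8 and 74.1 in the DKO. The groups did not overlap at any step of that order. Against control the log2 fold change was -0.30 ± 0.10 in the PU.1 cKO (adjusted p = 0.109, edgeR), -1.36 ± 0.11 in the SpiB KO (8.58e-05) and -1.56 ± 0.11 in the DKO (1.35e-05).

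In CD40L + IL-4, Pold1 was at 282 and 235 CPM in the control, 193 and 234 in the PU.1 cKO, 159 and 171 in the SpiB KO and 98.9 and 128 in the DKO. It fell in the DKO (-1.20 ± 0.18, adjusted p = 0.000895), while the SpiB KO lay at -0.66 and did not pass. In LPS + IL-4 it was at 175 and 180 CPM in the control, 161 and 144 in the PU.1 cKO, 117 and 119 in the SpiB KO and 95.6 and 97.8 in the DKO (SpiB KO -0.58 ± 0.08, adjusted p = 0.00517; DKO -0.80 ± 0.08, adjusted p = 7.03e-05). So at each stage the SpiB KO and DKO libraries were all below the control and PU.1 cKO libraries.

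The PU.1 cKO and the DKO both carried floxed Spi1 with Cre and differ in Spib, and Pold1 differed between them in the same direction. Their Spi1 level was not equal. It was higher in the DKO in naive cells (log2 0.92 ± 0.11, adjusted p = 0.000481 by edgeR) and in LPS + IL-4 (0.52 ± 0.10, 0.00776). In CD40L + IL-4 it lay at -0.49 ± 0.20 (0.325). In the DKO against the PU.1 cKO, Pold1 fell in naive cells (-1.25 ± 0.11, adjusted p = 4.07e-05), in CD40L + IL-4 (-0.90 ± 0.18, 0.0239) and also in LPS + IL-4 (-0.61 ± 0.08, 0.00161). In CD40L + IL-4 that call was lost without DKO replicate 1 (-0.73) or PU.1 cKO replicate 2 (-0.76). It was the only member called lower in each of these 3 comparisons, in which 12.9%, 3.98% and 12.4% of all genes were called. In the DKO against the SpiB KO it lay at -0.53 ± 0.18 in CD40L + IL-4 (adjusted p = 0.0814) and -0.22 ± 0.08 in LPS + IL-4 (0.0979). Pold1 lies on chromosome 7 from 44532744 to 44548815 (GRCm38.p6), and Spib from 44525995 to 44532087, with 656 bases between them and both on the minus strand. The next nearest member to Spib, Lig1, is 31214568 bases away. The Spib null allele is therefore carried next to Pold1 in the SpiB KO and DKO, and what part that neighbourhood has in the Pold1 level was not tested.

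**Figure D3:**
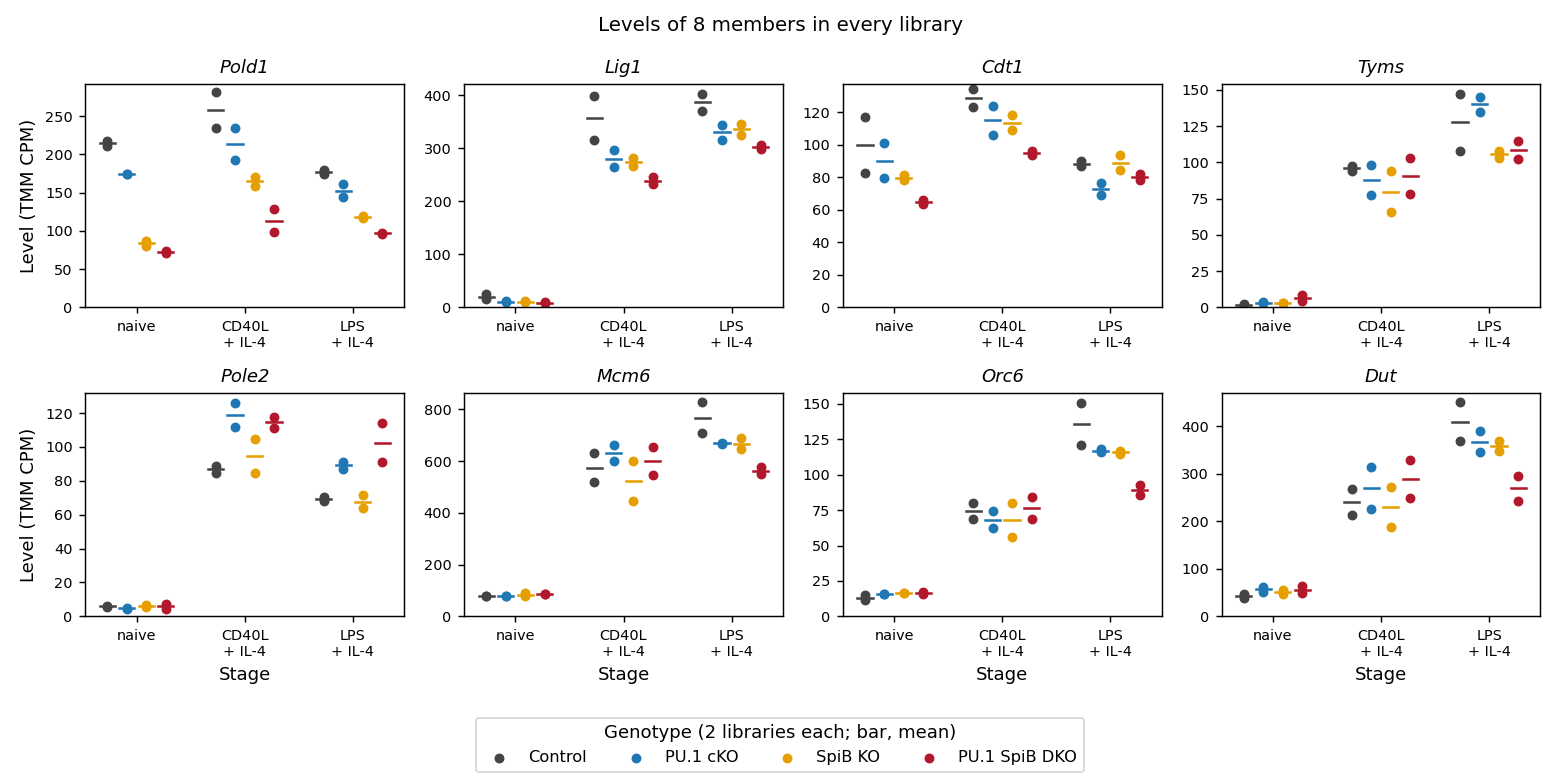
Level (TMM-normalized CPM, linear axis from 0) of 8 members in every library, by stage and genotype, with 2 points and a bar at the mean for each group. Pold1 steps down from control to DKO at each stage, Lig1 and Cdt1 have their lowest mean in the DKO in naive and CD40L + IL-4 cells, and in LPS + IL-4 cells both DKO points of Mcm6, Orc6 and Dut lie below all points of the other genotypes.

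Lig1, the ligase of the lagging strand, was lower in all 3 genotypes of naive cells. It was at 15.3 and 24.5 CPM in the control, 9.46 and 11.4 in the PU.1 cKO, 9.14 and 11.5 in the SpiB KO and 7.44 and 10.2 in the DKO. All mutant libraries lay below both controls, although the controls were themselves far apart. Its log2 fold change was -0.95 ± 0.27 in the PU.1 cKO (adjusted p = 0.0593), where it was the member called, -0.95 ± 0.26 in the SpiB KO (0.0656) and -1.17 ± 0.27 in the DKO (0.0121). In CD40L + IL-4 it fell from 398 and 315 CPM to 233 and 245 in the DKO (-0.59 ± 0.16, 0.0316), and in LPS + IL-4 from 371 and 402 to 298 and 306, a smaller fold (-0.28 ± 0.08, 0.0222). Its exons overlap those of Zswim9 on the other strand in GENCODE, and the counting is not stated to use strand. Of the 41 members, 12 have such an overlap with a gene on the other strand, and 2, Pole2 and Rpa1, overlap a gene on the same strand. The 12 are Mcm7, Orc1, Orc6, Cdc45, Gins2, Pole, Rfc2, Rfc4, Rfc5, Fen1, Lig1 and Tk1. Lig1 lost both single-loss calls in naive cells without control replicate 2 (-0.53 and -0.54, adjusted p of 0.316 and 0.4 by edgeR) and without either replicate of the mutant group itself, where the fold stayed about as large (-0.82 and -1.10 in the PU.1 cKO, -0.80 and -1.13 in the SpiB KO).

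In naive DKO cells Rfc3 and Cdt1 also fell, and Tyms rose. Rfc3, a subunit of the clamp loader, was at 21.9 and 28.2 CPM in the control and 15.9 and 14.6 in the DKO (-0.71 ± 0.18, adjusted p = 0.0203). Without control replicate 2 Rfc3 lay at -0.49, under 1.5-fold. Cdt1 was at 82.7 and 117 CPM in the control and 63.8 and 66.0 in the DKO (-0.62 ± 0.18, 0.0352). Tyms was at 1.45 and 2.08 CPM in the control, 3.33 and 3.18 in the PU.1 cKO, 2.92 and 3.22 in the SpiB KO and 8.48 and 4.44 in the DKO (1.87 ± 0.38, 0.00645). Both DKO libraries lay above all others, with replicate 1 far above replicate 2. Its control libraries held 19 and 28 counts, and its level in every naive group stayed far below the activated ones. Without control replicate 2 the value of Cdt1 was -0.31 and without DKO replicate 1 it was -0.60, and neither passed.

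At any fold, 7 members of the naive DKO passed the adjusted p as lower and 3 as higher, where 16.4% and 18.2% of all genes did. Both naive DKO libraries lay below both control libraries for 15 of 40 members, against 28% of all genes, and the median log2 fold change was -0.07. Against the PU.1 cKO, naive DKO cells had higher Tk1 (6.93 and 4.27 against 2.38 and 2.84 CPM), Rrm2 (10.4 and 6.86 against 4.49 and 4.40) and Tyms. These are 3 of the 5 deoxynucleotide genes, all near or below 10 CPM. Beside them the summed level of 10 mitosis genes was 27.9 to 46.7 CPM in the naive DKO, 18.9 to 23.1 in the PU.1 cKO and 24.3 to 29.4 in the control. The summed markers of plasmacytoid dendritic and T cells were higher in the DKO, as given above. Of the T cell markers, only Cd8a (5.12 ± 0.61) and Cd4 (2.77 ± 0.38) were called against control, and no Cd3 gene was. The summed level of macrophage markers was 76.4 to 76.7 CPM in the DKO, 14.1 to 15 in the PU.1 cKO and 13.8 to 27.2 in the control, and that of plasma cell markers was 261 to 343, 169 to 177 and 232 to 245 CPM. Among these Cd68 rose in the DKO against control (2.66 ± 0.27, adjusted p = 0.000167), and so did Sdc1, the gene of CD138 (1.38 ± 0.21). Their part in these rises was not tested. Without DKO replicate 1 the differences of Tk1, Rrm2 and Tyms from the PU.1 cKO were 0.71, 0.63 and 0.45 and none of the 3 passed. Nor did they without either PU.1 cKO replicate, where the differences stayed about as large (0.99 and 1.24 for Tk1, 0.98 and 0.95 for Rrm2, 1.03 and 0.96 for Tyms). Without that DKO library 5 members in place of 10 passed against the control. Against the SpiB KO, 0 members were called in the naive DKO (3.1% of all genes) by edgeR, DESeq2 or voom, with 4 at an unadjusted p under 0.05, and 1, Mcm5, passed the adjusted p (-0.36 ± 0.10, 0.143).

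Of 32 other nucleotide synthesis genes outside the members, 5 were called higher and 1 lower in the naive DKO, where 20.9% of all genes were called, and their median log2 fold change was 0.21. Dctd, which deaminates dCMP, and Shmt1, of folate metabolism, were among those that rose (1.37 ± 0.31 and 1.10 ± 0.20). Of 31 other replisome genes, 4 were called lower and 0 higher, led by Recql4 (-1.96 ± 0.64), Rfc1 (-1.04 ± 0.40) and Timeless (-0.86 ± 0.20). E2f2 (0.85 ± 0.12), Ccne1 (0.99 ± 0.22) and Tfdp1 (1.17 ± 0.22) rose among the E2F and RB genes.

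In CD40L + IL-4 cells 3 polymerase genes and Lig1 fell in the DKO and 0 members were called higher. Besides Pold1 these were Pole, the catalytic subunit of polymerase epsilon, at 208 and 120 CPM in the control and 96.9 and 111 in the DKO (-0.67 ± 0.23, adjusted p = 0.082), and Pola1, the catalytic subunit of polymerase alpha, at 118 and 81.1 and at 59.3 and 73.0 (-0.60 ± 0.21, 0.0766). In both, control replicate 1 was far above control replicate 2, and the DKO libraries lay below both. Without control replicate 1 only Pold1 was called, with Pole at -0.21, Pola1 at -0.29 and Lig1 at -0.40. Without DKO replicate 1 Pole lay at -0.58, Pola1 at -0.46 and Lig1 at -0.55, all under 1.5-fold. Pole was also lost without DKO replicate 2. With all libraries, the catalytic subunits of all 3 replicative polymerases were among the 4 members called. Their partner subunits did not move alike. Pold4, the small subunit of polymerase delta and no member of the 41, fell with Pold1 (-1.08 ± 0.20, adjusted p = 0.00412). Pold2 was at 111 and 98.6 CPM in the control and 94.7 and 111 in the DKO, and Pole2 passed the adjusted p in the other direction (84.7 and 88.8 against 118 and 111 CPM, 0.39 ± 0.16, 0.135).

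Markers of other cell states moved in the same comparison. The summed level of plasma cell markers was 796 to 953 CPM in the control and 1680 to 1850 in the DKO, with Prdm1 at 2.46 ± 0.18 and Sdc1 at 2.12 ± 0.26 on the log2 scale. That of B cell markers was 5500 to 7110 CPM and 3660 to 4690, and that of macrophage markers 42.9 to 58.2 and 8.68 to 11.5. The part of these in the lower members was not tested.

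At any fold, 6 members of the CD40L + IL-4 DKO passed as lower and 2 as higher, where 12.7% and 12.6% of all genes did. Both DKO libraries lay below both controls for 17 of 41 members, against 27% of all genes. The 8 members that passed became 2 without control replicate 1, 3 without DKO replicate 1 and 4 without DKO replicate 2. The MCM subunits lay between -0.25 and 0.06 on the log2 scale and 0 of 6 passed. In the PU.1 cKO, Rfc3 was the member called (53.1 and 51.9 CPM in the control, 32.0 and 38.6 in the cKO, -0.59 ± 0.17, adjusted p = 0.0479), but not without control replicate 1 (-0.55) or cKO replicate 1 (-0.45). In the SpiB KO 39 of 41 members had a log2 fold change below 0, with a median of -0.15, but 0 members passed the adjusted p in edgeR. At an unadjusted p under 0.05 there were 3, all lower, DESeq2 called 1 and voom 0. There the members' median difference between replicates 1 and 2 was -0.34 on the log2 scale, larger in size than the median fold change itself, and in the control it was 0.07. Against the SpiB KO, 0 members of the DKO were called by edgeR (15% of all genes), DESeq2 or voom, with 4 at an unadjusted p under 0.05.

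LPS + IL-4 cells gave the broadest change across the members, at a small fold. In the DKO 27 of 41 members passed the adjusted p as lower and 1 as higher, where 22.3% and 25.5% of all genes did, and 38 of 41 had a log2 fold change below 0. The median was -0.28, against 0.01 over all genes, and in the CD40L + IL-4 DKO the members' median was -0.18. Both DKO libraries lay below both controls for 34 of 41 members, against 38.6% of all genes. Leaving out each library in turn gave 24 to 30 members in either direction. All but Pold1 and Pole2 changed by less than 1.5-fold. By role, 5 of 6 MCM subunits, 6 of 11 licensing and firing genes, 8 of 9 polymerase and primase genes, 6 of 10 genes of the clamp group and 2 of 5 deoxynucleotide genes fell.

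**Figure D4:**
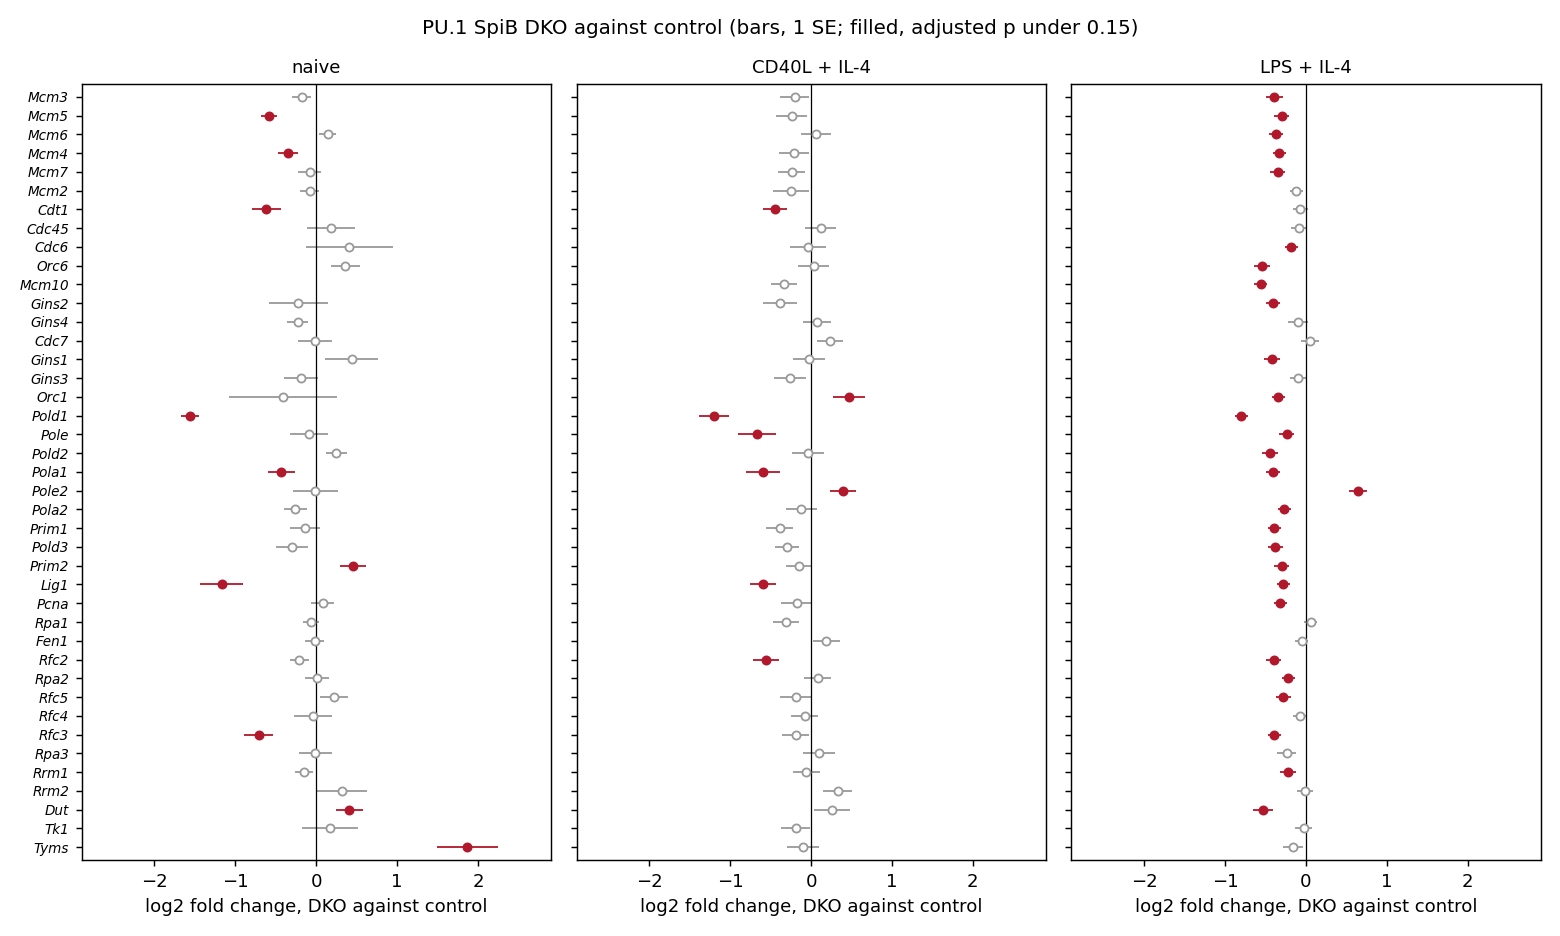
log2 fold change of each member in the PU.1 SpiB DKO against control, with a panel for each stage, points at the estimate and bars of 1 SE. Filled red points have an adjusted p under 0.15; in the LPS + IL-4 panel 27 filled points lie left of 0 and 1, Pole2, lies to the right, while in the naive and CD40L + IL-4 panels most points are open.

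Among origin factors in LPS + IL-4, Mcm10 was at 149 and 164 CPM in the control, 132 and 127 in the PU.1 cKO, 137 and 135 in the SpiB KO and 99.0 and 102 in the DKO (-0.56 ± 0.08, adjusted p = 0.000518). Orc6, a subunit of the origin recognition complex, was at 121 and 151 CPM, 116 and 118, 115 and 117, and 85.8 and 92.5 (-0.54 ± 0.10, 0.00245 in the DKO). For both, the DKO libraries lay below those of all other genotypes. Gins2 fell in the DKO from 60.1 and 66.3 to 44.7 and 45.7 CPM (-0.41 ± 0.09, 0.00444). Cdt1 and Gins4, which were not called on activation, did not pass (-0.07 and -0.10).

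Of the helicase, Mcm3 was at 764 and 932 CPM in the control, 753 and 740 in the PU.1 cKO, 742 and 788 in the SpiB KO and 598 and 635 in the DKO (-0.39 ± 0.10, adjusted p = 0.0113). Mcm4, Mcm5, Mcm6 and Mcm7 lay between -0.30 and -0.37, and Mcm2 lay at -0.12 and did not pass. So 5 of the 6 subunits of the ring fell, within a narrow range.

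Of the polymerases and primase, Pola1 (139 and 160 CPM in the control, 109 and 105 in the DKO, -0.41 ± 0.09), Prim1, the catalytic subunit of primase (84.4 and 95.2, 66.4 and 63.8, -0.39 ± 0.08), and Pold2 (148 and 176, 109 and 117, -0.44 ± 0.10) fell with Pold1. Pole2, the accessory subunit of polymerase epsilon, went the other way. It was at 67.9 and 70.6 CPM in the control, 87.0 and 91.2 in the PU.1 cKO, 71.5 and 63.8 in the SpiB KO and 114 and 91.0 in the DKO (0.64 ± 0.11, adjusted p = 0.00207). Here the PU.1 cKO also passed (0.38 ± 0.11, 0.0571), and the DKO exceeded the SpiB KO (0.66 ± 0.11, 0.00303), the single member called in that comparison (12.6% of all genes). Without DKO replicate 1 Pole2 stayed past the adjusted p but under 1.5-fold, at 0.46 against control and 0.48 against the SpiB KO, and without SpiB KO replicate 2 it was at 0.58 against the SpiB KO. In CD40L + IL-4 Pole2 was likewise higher in the PU.1 cKO (126 and 112 CPM, 0.43 ± 0.16, 0.13) and in the DKO. In naive cells it was at 6.17 and 5.80 CPM in the control and 7.25 and 4.55 in the DKO.

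In the remaining groups Rfc3 fell from 63.7 and 64.5 to 48.2 and 45.0 CPM (-0.39 ± 0.08, adjusted p = 0.00583) and Pcna from 340 and 378 to 265 and 281 (-0.32 ± 0.08, 0.0109). Dut, which removes dUTP, was at 368 and 450 CPM in the control, 345 and 390 in the PU.1 cKO, 348 and 369 in the SpiB KO and 243 and 295 in the DKO (-0.53 ± 0.12, 0.00602). Rrm1 fell slightly (-0.22 ± 0.10, 0.124). Rrm2, Tk1 and Tyms lay at -0.01, -0.03 and -0.16 and did not pass. In an edgeR fit that blocked on the replicate number, Tyms passed as lower (-0.16 ± 0.08, adjusted p = 0.124). Rrm1 was at -0.22 ± 0.07 in that fit (0.0193). The deoxynucleotide genes were thus split between these outcomes.

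In LPS + IL-4 each single loss had 0 members called at over 1.5-fold by edgeR. DESeq2 called 0 in the PU.1 cKO and 1 in the SpiB KO, voom 0 in both, and at an unadjusted p under 0.05 there were 16 and 10 members. With the replicate block edgeR called 1 in the SpiB KO, Pold1 (-0.59 ± 0.07, adjusted p = 0.000185). In the PU.1 cKO 11 members passed the adjusted p as lower and 1 as higher, where 7.75% and 11.1% of all genes did, with a median of -0.13. The lower members included Rfc2 (167 and 183 CPM in the control, 135 and 129 in the cKO, -0.38 ± 0.09, adjusted p = 0.0205), Pold3 (-0.33 ± 0.09, 0.0303), Rfc3 (-0.32 ± 0.08, 0.0311) and Gins1 (-0.32 ± 0.10, 0.063). In the SpiB KO 39 of 41 members had a log2 fold change below 0, with a median of -0.14, and Pold1 was the member that passed as lower, where 1.51% of all genes passed as lower and 3.71% as higher. Both SpiB KO libraries lay below both controls for 22 of 41 members, against 18.1% of all genes, and both PU.1 cKO libraries for 25, against 26.1%. In a fit that blocked on the replicate number, the counts of lower members rose to 19 in the PU.1 cKO, 12 in the SpiB KO and 29 in the DKO, where 13.4%, 5.4% and 27.8% of all genes passed as lower in that fit. Without PU.1 cKO replicate 2 the 12 members that passed in the PU.1 cKO became 0, without its replicate 1 they became 6, and without control replicate 2 they became 5. Without control replicate 1 the SpiB KO count rose from 1 to 8.

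The DKO was also set against each single loss. Against the PU.1 cKO, 15 members passed as lower and 3 as higher (16.7% and 19.4% of all genes), with a median of -0.11, and against the SpiB KO 15 and 1 (13.6% and 16.4%), also with a median of -0.11. Mcm10 (-0.31 ± 0.08 and -0.37 ± 0.08), Orc6 (-0.33 ± 0.10 and -0.31 ± 0.10) and Dut (-0.40 ± 0.12 and -0.35 ± 0.12) passed in both. These counts rested on all libraries, with 2 to 10 members passing against the PU.1 cKO when 1 library of those groups was left out and 4 to 8 against the SpiB KO. The lowest counts came without PU.1 cKO replicate 2 and without DKO replicate 1. In the fit blocked on the replicate number, 18 members passed as lower and 3 as higher against the PU.1 cKO (23.6% and 26.3% of all genes). Against the SpiB KO, 18 and 1 did (20.7% and 22.4%). The interaction, which asks whether the DKO departs from the sum of both single losses on the log2 scale, was called by edgeR for 0 members in naive cells (1% of all genes), for 0 with CD40L + IL-4 (1.06%) and for 0 with LPS + IL-4 (1.58%). At an unadjusted p under 0.05 there were 0, 1 and 1 members, and DESeq2 and voom called 0 at each stage. In LPS + IL-4, where the replicate numbers were taken to pair the libraries, the fit blocked on them gave 1 member, Tk1 (0.38 ± 0.12, adjusted p = 0.109), where 5.82% of all genes passed as lower and 5.19% as higher.

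Mitosis genes did not follow the replication genes in LPS + IL-4. Their summed level was 2500 to 2820 CPM in the control and 2890 to 3190 in the DKO, while that of the members was 9100 to 10500 and 7510 to 7950. Of the 10, 2 passed as higher and 0 as lower, where 25.5% and 22.3% of all genes did. Mki67, which is part of that sum, was at 623 and 444 CPM in the control and 1030 and 561 in the DKO. Its replicates lay far apart and it did not pass (0.65 ± 0.49, adjusted p = 0.38 by edgeR). Without Mki67 the summed mitosis levels of the control and DKO libraries overlap. Plasma cell markers moved at the same time, with a summed level of 382 to 386 CPM in the control, 705 to 777 in the PU.1 cKO, 424 to 471 in the SpiB KO and 1060 to 1080 in the DKO. Prdm1, a repressor that drives plasma cell fate, was at 21.6 and 18.3 CPM in the control and 59.3 and 54.1 in the DKO. The sort took CD138- cells, and the part of these markers in the members' lower levels was not tested.

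Other genes of nucleotide synthesis and of the replisome also fell in the LPS + IL-4 DKO. Of 32 other nucleotide synthesis genes, 21 passed the adjusted p as lower and 4 as higher, where 22.3% and 25.5% of all genes did. Their median log2 fold change was -0.44. At over 1.5-fold 8 were called lower, where 20.1% of all genes were called in either direction. Gart, of purine synthesis, was at 486 and 614 CPM in the control and 297 and 328 in the DKO (-0.74 ± 0.11), and Shmt1 fell likewise (-0.78 ± 0.12). Of 31 other replisome and licensing genes, 19 passed as lower and 0 as higher, with a median of -0.22. The E2F and RB genes were split, with 5 that passed as higher and 6 as lower, where 25.5% and 22.3% of all genes did. Among them E2f2 was higher (1.28 ± 0.12) and E2f5 lower (-1.10 ± 0.12). E2f1 was at 64.3 and 67.0 CPM in the control and 41.8 and 42.9 in the DKO.

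Whether the DKO effect differed between stages was tested as a contrast of the 2 log2 fold changes. Between CD40L + IL-4 and naive it differed for 3 members (16.5% of all genes), between LPS + IL-4 and naive for 12 (29.4%) and between LPS + IL-4 and CD40L + IL-4 for 4 (28.4%). In the last of these Orc1, Dut, Orc6 and Mcm6 were all lower in LPS + IL-4. Orc6, for instance, was at 69 and 80.1 CPM in the control and 68.7 and 84.0 in the DKO in CD40L + IL-4, where the groups overlapped, and fell in LPS + IL-4. Dut was at 213 and 267 and at 249 and 330 in CD40L + IL-4. Orc1 was at 26.9 and 21.4 and at 28.6 and 38.9 in CD40L + IL-4 (0.47 ± 0.20, with an adjusted p just under the threshold), and at 84.5 and 97.3 and at 69 and 68 in LPS + IL-4 (-0.34 ± 0.08, 0.0113). The share of members that differed was below that of all genes in each contrast but the comparison of LPS + IL-4 with naive, where 12 of 41 is close to it.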

How the data were processed

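RNA-seq of 24 libraries was analysed, from 4 genotypes at 3 stages with 2 replicates each. Per the labels and the study's methods, the authors mapped reads to the mouse genome (GRCm38, also named mm10 in the submitters' processing notes) with Subread, kept uniquely mapped reads, and deposited raw read counts per RefSeq gene made with featureCounts, in 2 tables, 1 for CD40L + IL-4 libraries and 1 for naive and LPS + IL-4. The authors also deposited log2 RPKM per library, quantile normalized, with the LPS + IL-4 libraries normalized apart. These were used only to compare genes per length. Tool versions and strandedness are not given in the sources used here. Titles gave the stage, since all samples carry the same protocol text.

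Counts were tested with edgeR 4.0.16 (R 4.3.3), robust quasi-likelihood, TMM, 1 fit per stage and 1 over all libraries for comparisons of stages, for genes that reached 0.5 CPM in 2 or more of the libraries fitted. The 517 entries without a symbol and all other genes stayed in the fits. A called gene had a Benjamini-Hochberg adjusted p under 0.15 over all genes tested and a fold change over 1.5, and interactions and differences between stages were called on the adjusted p alone. The text says that a member passed where the adjusted p was met at any fold. Errors after ± are SE of log2 fold changes, and n = 2 per group throughout. An exact permutation test of 2 against 2 libraries cannot go below p = 0.333. Library totals were 14231188 to 73658850 counts, and PCR duplicates were not marked by molecular identifiers.

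The members and lists were chosen with earlier results of these data known. Members named were those called, the highest in each role, and the 10 with the lowest adjusted p where more passed. Replicate numbers of LPS + IL-4 libraries deviated together (r 0.386 to 0.514 for all 6 pairs of genotypes) and were taken to pair them. Values given for LPS + IL-4 come from the fit without this pairing unless the block is named. This was not so for naive (0.0918 to 0.25) and CD40L + IL-4 libraries (-0.0702 to 0.266). Replicates correlated at 0.978 to 0.991 and none were duplicates. The labels call them biological replicates, without naming animals or cultures. The alternatives were RLE size factors, library totals alone, no filter on low counts, DESeq2 1.42.0, limma-voom 3.58.1 with quantile normalization, the replicate block, other sets of libraries in the fit, leaving out Rn45s, other thresholds and each library left out. Scripts were tested on simulated data.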

Additional observations from a re-analysis of the deposited data

Results flagged for a closer look

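The difference between the log2 fold changes of the DKO against control at 2 stages was tested as a contrast by edgeR, and 19 values in 14 members passed an adjusted p of 0.15. Of all genes, 16.5% passed for CD40L + IL-4 against naive, 29.4% for LPS + IL-4 against naive and 28.4% between the stimuli. The share of members was close to this for LPS + IL-4 against naive and below it in the other contrasts. Between CD40L + IL-4 and naive cells these were Tyms (-1.94 ± 0.39, adjusted p = 0.00273), Prim2 (-0.58 ± 0.20, 0.0835) and Rfc3 (0.54 ± 0.21, 0.111), where a negative value is a lower fold change in the activated cells. Tyms was low in the naive control, at 19 and 28 counts.

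Between LPS + IL-4 and naive cells, 8 members had a lower fold change in LPS + IL-4. They were Tyms (-2.09), Dut (-1.01), Orc6 (-0.96), Gins1 (-0.92), Prim2 (-0.81), Pold2 (-0.76), Mcm6 (-0.57) and Rfc5 (-0.57). The fold change was higher in LPS + IL-4 for Lig1 (0.82), Pold1 (0.69), Pole2 (0.59) and Cdt1 (0.48), so that the naive fall of Pold1 and Lig1 was the deeper one. Adjusted p ran from 0.0011 to 0.118.

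Between LPS + IL-4 and CD40L + IL-4 cells, Orc1 (-0.89), Dut (-0.88), Orc6 (-0.64) and Mcm6 (-0.51) were lower in LPS + IL-4, with adjusted p from 0.0375 to 0.0813. Without control replicate 2 of LPS + IL-4 the count of 4 became 0, and without control replicate 2 of CD40L + IL-4 it became 8.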

How the results depend on the processing

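Depth was not even, with CD40L + IL-4 libraries from 9598674 to 61640683 counts, and n = 2 per group, so that small differences in the less deep stages are not detectable. Outside the control stage comparisons, members passed the adjusted p at any fold in 129 results, and 0 reversed direction under any alternative. A result lost its pass where the adjusted p was no longer met, so a fall under 1.5-fold was not counted. Under the replicate block 0 of the 129 lost it, 2 under RLE size factors, 9 under DESeq2, 8 with no filter on low counts and 17 under voom. With library totals alone 20 lost it, and 21 did where a fit held no other groups than those compared. With all 24 libraries in the fit 43 of 110 did, and in fits that left out 1 library 250 of 592 did. The cause of these shifts was not tested. Library totals alone moved the median of all genes by over 0.1 in 5 comparisons (0.11 in the naive DKO, 0.18 and 0.19 for CD40L + IL-4 and LPS + IL-4 against naive, and -0.14 and 0.11 for the DKO effects).

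The counts that moved by over 1.5 times were as follows, where a count is of members called in either direction. At any fold, they were 4 in the naive PU.1 cKO, 10 in the naive DKO, 1 in the naive DKO against the SpiB KO, 3 in the CD40L + IL-4 PU.1 cKO, 8 in the DKO and 1 in the DKO against the SpiB KO, and in LPS + IL-4 12 in the PU.1 cKO, 1 in the SpiB KO, 28 in the DKO, 18 in the DKO against the PU.1 cKO and 16 against the SpiB KO, with 26 for control LPS + IL-4 against CD40L + IL-4. At an adjusted p under 0.05 the naive counts were 0 in the PU.1 cKO, 1 in the SpiB KO and 1 in the DKO against the PU.1 cKO, the CD40L + IL-4 DKO had 2, and the DKO effect differed from naive for 1 in CD40L + IL-4 and between the stimuli for 2. At that threshold and any fold, the DKO had 6 in naive and 3 in CD40L + IL-4 cells, and LPS + IL-4 had 3 in the PU.1 cKO, 6 in the DKO against the PU.1 cKO and 5 against the SpiB KO.

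With no filter the naive PU.1 cKO had 6, the naive DKO against the SpiB KO 1, CD40L + IL-4 0 in the PU.1 cKO and 1 in the SpiB KO, and the LPS + IL-4 SpiB KO 3 at any fold. With all 24 libraries these were 7, 1, 0 and 1, the naive and CD40L + IL-4 interactions had 1 each, and in LPS + IL-4 the SpiB KO had 1 and the DKO 4, and at any fold the PU.1 cKO had 1 and the DKO 3 against the PU.1 cKO and 5 against the SpiB KO. With voom the counts were 1 in the naive DKO against the PU.1 cKO, 0 in the CD40L + IL-4 PU.1 cKO, 1 in the CD40L + IL-4 DKO, 0 in the LPS + IL-4 DKO against the PU.1 cKO and 5 for the DKO effect between CD40L + IL-4 and naive. DESeq2 called 1 in the CD40L + IL-4 SpiB KO and 1 in the LPS + IL-4 SpiB KO (2 at any fold), RLE 1 in the latter, and library totals 1 there and 0 in the LPS + IL-4 DKO against the PU.1 cKO. In fits without other groups, 6 passed in the naive DKO, 7 in the LPS + IL-4 PU.1 cKO, and the DKO effect differed between CD40L + IL-4 and naive for 1.

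The replicate block, taken as a pairing in LPS + IL-4 only, gave 4 in the naive PU.1 cKO, 1 in the naive DKO against the SpiB KO, 1 for each interaction, 1 in the LPS + IL-4 SpiB KO, 6 for the DKO effect between CD40L + IL-4 and naive and 10 between the stimuli. At any fold it gave 16 in the naive DKO, 13 in the CD40L + IL-4 DKO, 20 in the LPS + IL-4 PU.1 cKO and 12 in the SpiB KO. It changed no other call by as much. The median log2 fold change of the members ran from -0.14 to 0.04 in the naive DKO, the upper end with library totals alone, from -0.26 to -0.05 in the CD40L + IL-4 DKO and from -0.37 to -0.24 in the LPS + IL-4 DKO over 13 alternatives each.

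With each library left out in turn, the counts were 0 to 2 in the PU.1 cKO, 1 to 3 in the SpiB KO, 5 to 6 in the DKO, 1 to 4 in the DKO against the PU.1 cKO, 0 to 1 in the DKO against the SpiB KO and 0 to 1 in the interaction in naive cells, 0 to 2 in the PU.1 cKO, 0 to 0 in the SpiB KO, 1 to 4 in the DKO, 0 to 1 in the DKO against the PU.1 cKO, 0 to 2 in the DKO against the SpiB KO and 0 to 0 in the interaction in CD40L + IL-4, and 0 to 0 in the PU.1 cKO, 0 to 1 in the SpiB KO, 1 to 5 in the DKO, 0 to 1 in the DKO against the PU.1 cKO, 0 to 1 in the DKO against the SpiB KO and 0 to 0 in the interaction in LPS + IL-4. At any fold they were 5 to 10 in the DKO in naive cells, 2 to 8 in the DKO in CD40L + IL-4, and 0 to 13 in the PU.1 cKO, 1 to 8 in the SpiB KO, 24 to 30 in the DKO, 2 to 10 in the DKO against the PU.1 cKO and 4 to 8 in the DKO against the SpiB KO in LPS + IL-4. In the control they were 38 to 39 for CD40L + IL-4 and 38 to 39 for LPS + IL-4 against naive and 5 to 10 between the stimuli, and for the DKO effect 2 to 4, 7 to 15 and 0 to 8 in the same order.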

Other observations

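In the DKO in CD40L + IL-4, of 32 other nucleotide synthesis genes 3 were called higher and 0 lower. Impdh1, of guanine nucleotide synthesis, was at 1.18 on the log2 scale. Of 31 other replisome and licensing genes 3 were called lower and 0 higher. Among them were Pold4, the small subunit of polymerase delta (-1.08), and Rfc1, the large subunit of the clamp loader (-1.02 ± 0.20). Both shares were below the 18.1% of all genes called in that comparison. Timeless, which travels with the fork, was lower there as it was in naive cells (-0.71 ± 0.16 and -0.86 ± 0.20). Dnmt1, the maintenance methyltransferase, fell in naive cells (-1.03) and in CD40L + IL-4 (-0.76). E2f1 lay at -0.72 in CD40L + IL-4, with 86.4 and 76.2 CPM in the control, 41.6 and 57.0 in the PU.1 cKO, 63.3 and 68.9 in the SpiB KO and 49.1 and 50.1 in the DKO. The PU.1 cKO and DKO libraries of E2f1 lay below those of the control and the SpiB KO.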
